A study of Diplotaxodon limnothrissa and Petrotilapia genalutea and Rhamphochromis longiceps with 60 samples.

Results

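The genes described here make, fold, check and ship proteins of the endoplasmic reticulum (ER). They were chosen by gene symbol from the liver and muscle expression tables of 4 cichlid species of Lake Malawi, by a pattern that takes in the SEC genes, signal recognition particle and translocon-associated proteins, signal peptidase, oligosaccharyltransferase, ER chaperones, disulfide isomerases and oxidases, and the sensors and transcription factors of the unfolded protein response. The pattern matched 59 of 29676 genes. It reads symbols and no measured values, but was chosen with earlier results of these data known. Of these, 14 belong to signal recognition and translocation, 4 to signal peptidase, 4 to oligosaccharyltransferase, 6 are chaperones, 7 act in disulfide formation, 9 are stress sensors or transcription factors, 4 act in ER-associated degradation, 9 in the COPII coat and vesicle traffic, and the last 2, dnajc30 and sec14l2, are matches by name alone that are not ER genes. Of all genes in the tables, 66.4% carry placeholder names only, and several central genes of the pathway (hspa5, which encodes BiP, as well as calr, sec61a1 and creb3l3) are not listed under their symbols, so copies with placeholder names are not covered.

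Transcriptomes (RNA-seq) of liver and muscle came from the same wild-caught adult males of Diplotaxodon limnothrissa (DL, a predator of deep open water), Maylandia zebra (MZ) and Petrotilapia genalutea (PG), both rock-dwelling algae eaters of the Mbuna group, and Rhamphochromis longiceps (RL, a pelagic piscivore). Each species was represented by 3 fish per tissue, except that only 2 RL livers had a column, giving 11 livers and 12 muscles. No fish was treated, and all were bought dead from fishermen during the same field trip, with tissue stored in RNAlater. The time from death to sampling is not given in the sources used here, and species cannot be told apart from the catch it came from. Replicates are different fish, named below by species and fish number.

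Proteins bound for secretion or for membranes enter the ER through the translocon as they are made, lose their signal peptide, receive sugar chains and disulfide bonds, and are folded by chaperones before COPII vesicles carry them to the Golgi. When unfolded proteins build up, the sensors IRE1 (gene ern1), ATF6 and PERK start the unfolded protein response, in which XBP1, ATF6 and ATF4 switch on chaperones, disulfide isomerases and degradation factors. Hepatocytes secrete most proteins of blood plasma and hold extensive rough ER, whereas the specialised ER of a muscle fibre mainly stores calcium.

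Levels are given as TPM, the share of a library's transcripts that belongs to a gene, corrected for transcript length. Differences are on the scale of log2(TPM + 1), which understates the change of genes near 1 TPM, and come with the standard error (SE) and an adjusted p-value from limma. A gene is called different at an adjusted p under 0.01, adjusted over all genes tested in that comparison. Of the 59 genes, 58 passed the filter on low values (at least 1 TPM in at least 2 libraries) over both tissues together, 54 in liver and 57 in muscle. The gene that failed it everywhere was sel1l3, a relative of the degradation adaptor sel1l, whose highest value was 0.596 TPM. The liver libraries expressed hepatocyte markers (7 of 20 listed, 9602 to 31666 TPM summed) that summed to 12.2 to 63.4 TPM in muscle. Of these markers, cps1 ran the other way, at 0 to 0.492 TPM in livers and 6.55 to 55.3 TPM in muscles. The 2 listed markers of skeletal muscle summed to 1.15 to 185 TPM in muscle and to at most 1.47 TPM in liver, apart from 29.3 TPM in a DL liver.

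Before any comparison, 2 livers stood apart in these genes, those of DL fish 1 and RL fish 2. The 59 genes together made up 3821 TPM in the DL fish 1 liver against 1647 and 1701 TPM in the other DL livers, and 3723 TPM in the RL fish 2 liver against 1574 TPM in that of RL fish 3. Among genes that reached 5 TPM, DL fish 1 had the highest liver level of its species for 47 of 53 (88.7%), where it had the highest level for 31.6% of all genes. RL fish 2 had the higher liver level for 35 of 45 (77.8%), where it had the higher level for 30.7% of all genes. Chaperones summed to 414 TPM in the DL fish 1 liver against 106 and 83.3 TPM, disulfide genes to 804 against 305 and 306 TPM, and oligosaccharyltransferase genes to 311 against 109 and 96.4 TPM. The level of hsp90b1, encoding the ER chaperone GRP94, was 183 TPM in the DL fish 1 liver against 28.7 and 18.9 TPM in DL fish 2 and 3, and 343 TPM in RL fish 2 against 21.0 TPM in RL fish 3. The disulfide isomerase gene pdia4 was at 47.2 TPM against 8.22 and 6.83 TPM in the DL livers, and at 367 against 4.92 TPM in the RL livers. These levels differed 74.5-fold for pdia4 between the 2 RL livers and 16.4-fold for hsp90b1.

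The pair of livers differed in the 9 sensors and transcription factors. In the DL fish 1 liver, 4 of them were the highest of the species, among them xbp1 at 696 TPM against 305 and 319 TPM and atf6 at 12.97 TPM against 3.25 and 3.78 TPM. Another 2 were the lowest, creb3l1 at under 1 TPM and ddit3, encoding the stress-induced factor CHOP, at 17.03 TPM against 21.9 and 24.7 TPM. In the RL fish 2 liver, 8 of the 9 were the lower of the pair, with xbp1 at 161 against 292 TPM, atf6 at 1.49 against 3.72 TPM, ern1 at 4.51 against 11.4 TPM and ddit3 at 10.04 against 31.8 TPM. The exception was creb3l4, at 3.64 against 1.39 TPM. Outside the 59 genes, creld2, another ER stress gene, was high in both livers, with 15.6 TPM in DL fish 1 against 1.55 and 1.17 TPM, and 46.6 TPM in RL fish 2 against 1.47 TPM. It was picked outside the rule for naming genes, and other pathway genes outside the 59 are not given for these livers. The muscle of RL fish 2 also had the highest level of its species for 35 of 46 genes (76.1%; 57.5% of all genes), with pdia4 at 10.7 TPM against 0.840 and 1.63 TPM, while the muscle of DL fish 1 did so for 24 of 44 (54.5%; 54.7% of all genes). The MZ fish 3 muscle stood further apart by this count, with the highest level of its species for 39 of 48 genes (81.3%; 53.8% of all genes). Teleost liver can hold exocrine pancreas, itself rich in ER, and 3 of 22 pancreas markers were listed. The digestive enzyme gene cpb1 was at 221 TPM in the DL fish 1 liver, between 279 and 186 TPM in the other DL livers. In the RL fish 2 liver it was at 634 TPM against 233 TPM in RL fish 3. The marker bhlha15 was at 6.66 TPM in DL fish 1 against 6.03 and 2.12 TPM, and at 3.55 TPM in RL fish 2 against 3.59 TPM. The marker ptf1a was at 0.526 TPM in DL fish 1 against 1.06 and 0.505 TPM, and at 2.29 TPM in RL fish 2 against 0.960 TPM. The part of pancreatic tissue in these levels was not tested, and the results below are also given without these livers where that changes them.

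**Figure D1:**
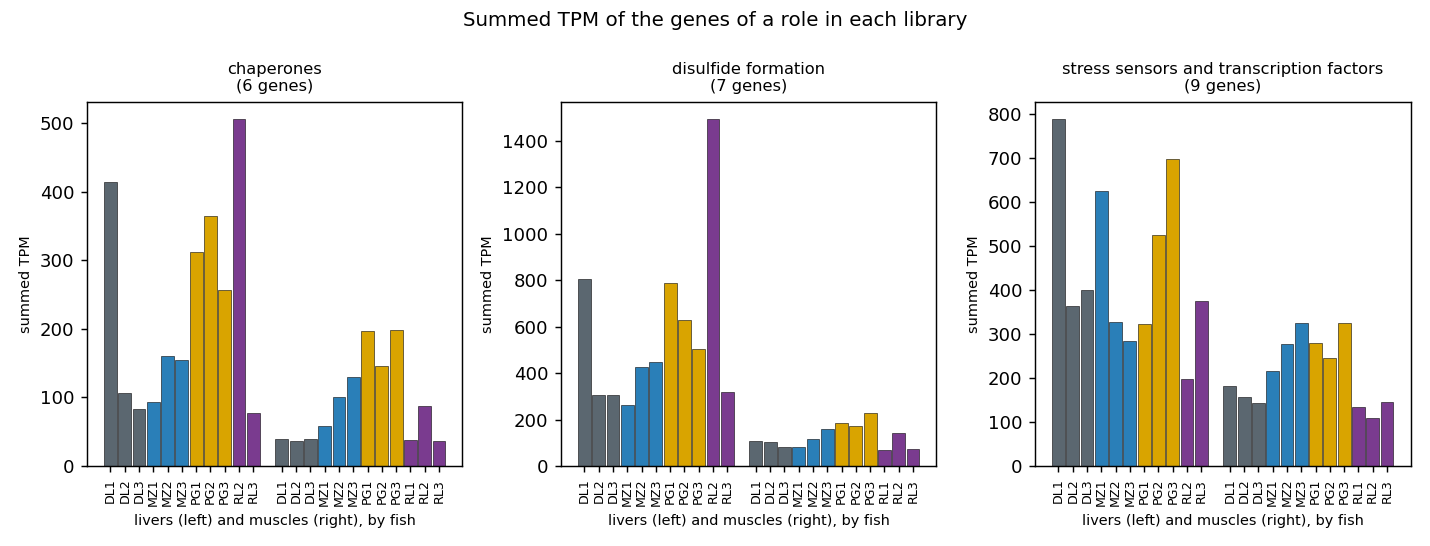
Summed TPM of the 6 chaperone genes, the 7 disulfide genes and the 9 sensor and transcription factor genes, 1 bar per library, coloured by species, with livers to the left and muscles to the right. The livers of DL fish 1 (414 TPM) and RL fish 2 (505 TPM) stand above their species' other livers (76.9 to 106 TPM) for chaperones, the RL fish 2 liver (198 TPM) stands below RL fish 3 (376 TPM) for sensors and factors, and the PG muscles (146 to 198 TPM) stand above all other muscles for chaperones.

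The first question was how the same fish's liver and muscle differ in these genes. Averaged over species, 33 of 58 genes (56.9%) were called between the tissues, with 22 higher in liver (37.9%) and 11 higher in muscle (19.0%). Among all 20549 genes tested the calls made up 55.4%, with 17% higher in liver and 38.4% higher in muscle. Of the 33, creb3l1, sec22c and dnajc30 did not pass the filter in livers alone, nor spcs2 in muscles alone. These entered the fit through the tissue where they were then called higher, so their direction is no independent result. The median difference, liver minus muscle, was 0.42 for the 58 genes and -0.27 for all genes. The split depended on how libraries were scaled: with libraries brought to the same median it was 33 higher in liver and 5 higher in muscle, and with quantile normalisation 29 and 5, as the median of all genes moved to -0.05 and -0.03. The shares of all genes called under these scalings are not given here. Without the 2 livers that stood apart, 31 genes were called, 18 of them higher in liver. Because these livers were left out for their high levels of these genes, fewer calls higher in liver can follow from that choice. The share of all genes called in that fit is not given here. In bulk tissue, fewer cells of a type and less RNA per cell cannot be told apart.

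By role, every gene called in disulfide formation, chaperones, oligosaccharyltransferase and signal peptidase was higher in liver, while sensors and transcription factors fell on both sides. The median difference was 1.89 for the 7 disulfide genes (4 higher in liver), 1.43 for the 6 chaperones (4 higher), 0.98 for the 4 oligosaccharyltransferase genes (3 higher), 0.69 for the 4 signal peptidase genes (2 higher) and 0.10 for the 14 genes of signal recognition and translocation (5 higher, 1 lower).

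**Figure D2:**
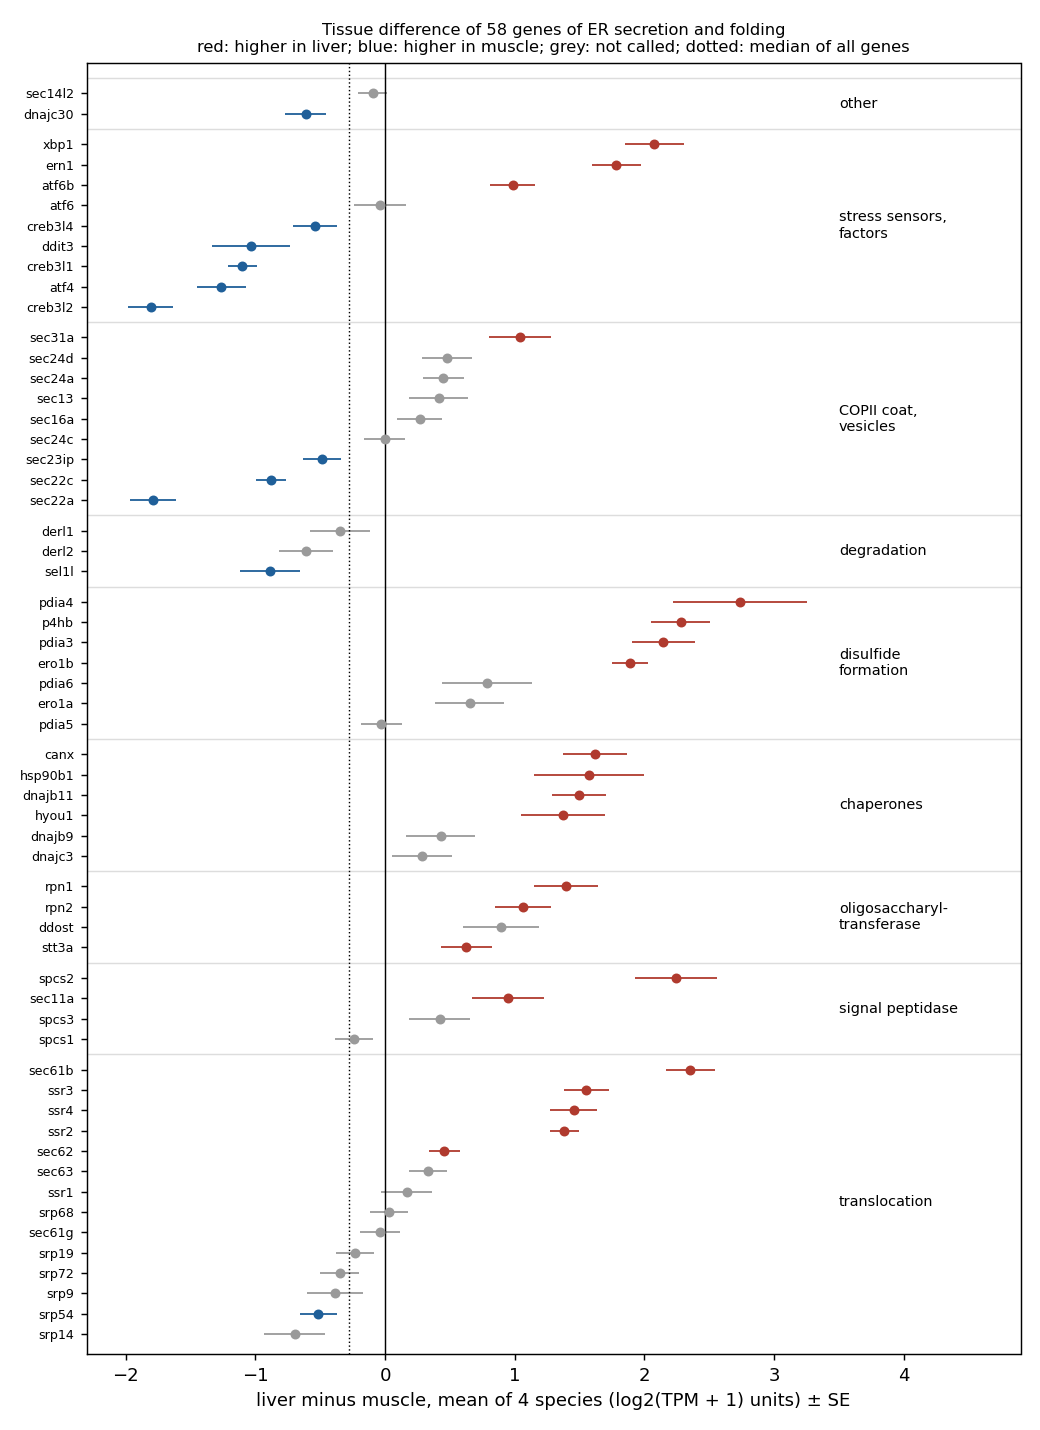
Difference between liver and muscle in log2(TPM + 1), averaged over 4 species, with its SE, for each of the 58 genes tested, grouped by role. Red points are called higher in liver (22 genes), blue points higher in muscle (11 genes), and the dotted line is the median of all genes (-0.27). Disulfide, chaperone and oligosaccharyltransferase genes lie mostly to the right, while sensors and transcription factors range from creb3l2 (-1.81) to xbp1 (2.08).

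At the translocon, sec61b, a small subunit of the channel through which new proteins enter the ER, ranged from 61.1 to 194 TPM in livers (median 97.2) and from 8.33 to 40.7 TPM in muscles (median 19.2). No liver overlapped a muscle, and the difference was 2.35 (SE 0.19, adjusted p = 1.18e-09). The translocon-associated proteins ssr2 and ssr3, named here after their values were seen, did not overlap either, with ssr2 at 98.0 to 220.4 TPM in livers and 46.1 to 78.1 TPM in muscles, and ssr3 at 88.1 to 255 TPM and 26.6 to 81.8 TPM. Their differences were 1.38 (SE 0.11, adjusted p = 1.18e-09) and 1.55 (SE 0.17, adjusted p = 1.50e-07). The gene of the signal recognition particle's core subunit, srp54, went the other way, at 12.2 to 32.6 TPM in livers (median 22.2) and 22.8 to 42.0 TPM in muscles (median 29.6). Its difference of -0.51 (SE 0.14, adjusted p = 0.00378) was lost without the RL fish 3 liver (adjusted p = 0.0203) and under both scalings (-0.10 and -0.28, adjusted p = 0.537 and 0.0729).

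The signal peptidase subunit gene spcs2 had a median of 7.33 TPM in livers and 0.0377 TPM in muscles, with ranges of 0 to 17.2 TPM and 0 to 2.53 TPM. It was listed at 0 in the livers of PG fish 1 and PG fish 3, while PG fish 2 had 8.82 TPM, so the tissues overlapped although the mean difference was 2.24 (SE 0.32, adjusted p = 3.50e-06). In the oligosaccharyltransferase, which attaches sugar chains to new proteins, the catalytic subunit gene stt3a lay at 26.7 to 111 TPM in livers (median 43.8) and 22.1 to 51.4 TPM in muscles (median 31.5). Its difference of 0.63 (SE 0.20, adjusted p = 0.00866) was among the weakest calls and was lost in 15 of 23 fits that left out 1 library (adjusted p up to 0.0472). The fits that kept it were those without the DL fish 2 or 3, MZ fish 1, PG fish 3 or RL fish 3 liver or the DL fish 2, MZ fish 3 or RL fish 2 muscle.

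The largest fitted difference was that of pdia4, at 4.92 to 367 TPM in livers (median 23.3) and 0.840 to 10.7 TPM in muscles (median 2.53). The overlap came from the livers of RL fish 3, DL fish 2 and DL fish 3 (4.92 to 8.22 TPM) and the muscle of RL fish 2 (10.7 TPM), together with the upper PG muscles (5.11 and 6.44 TPM). The difference of 2.74 (SE 0.52, adjusted p = 0.000113) remained called in all 23 fits without a library. The genes of the general disulfide isomerases p4hb and pdia3 separated the tissues completely. The level of p4hb was 91.4 to 467 TPM in livers (median 164) and 19.0 to 89.0 TPM in muscles (median 48.3), a difference of 2.28 (SE 0.23, adjusted p = 2.72e-08). That of pdia3 was 91.0 to 492 TPM in livers (median 171) and 21.8 to 61.6 TPM in muscles (median 38.6), a difference of 2.15 (SE 0.24, adjusted p = 1.56e-07).

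The oxidases that feed electrons away from the isomerases behaved differently from each other. The level of ero1b was 10.3 to 62.4 TPM in livers (median 29.8) and 3.98 to 22.9 TPM in muscles (median 5.41), a difference of 1.89 (SE 0.14, adjusted p = 3.10e-10). That of ero1a was 1.61 to 27.2 TPM in livers (median 3.96) and 0.204 to 27.1 TPM in muscles (median 2.07), and its difference of 0.65 (SE 0.27, adjusted p = 0.0393) was called only under the scalings (0.97 and 0.93, adjusted p = 0.00253 and 0.00342).

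Among chaperones, the lectin chaperone gene canx was at 14.9 to 68.0 TPM in livers (median 33.0) and 4.25 to 16.8 TPM in muscles (median 9.28), a difference of 1.62 (SE 0.24, adjusted p = 8.31e-06). The level of hyou1, which encodes a nucleotide exchange factor of BiP, was 4.54 to 46.2 TPM in livers (median 12.6) and 1.47 to 12.5 TPM in muscles (median 6.30), a difference of 1.37 (SE 0.32, adjusted p = 0.000981). The spread of hsp90b1 was wider, 18.9 to 343 TPM in livers (median 69.6) and 4.76 to 128 TPM in muscles (median 23.3). Its difference of 1.57 (SE 0.43, adjusted p = 0.00306) was lost without the RL fish 2 liver (adjusted p = 0.0154). The co-chaperone gene dnajb9 was at 3.83 to 32.5 TPM in livers and 1.78 to 19.7 TPM in muscles, and its difference of 0.43 (SE 0.27, adjusted p = 0.169) was not called.

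**Figure D3:**
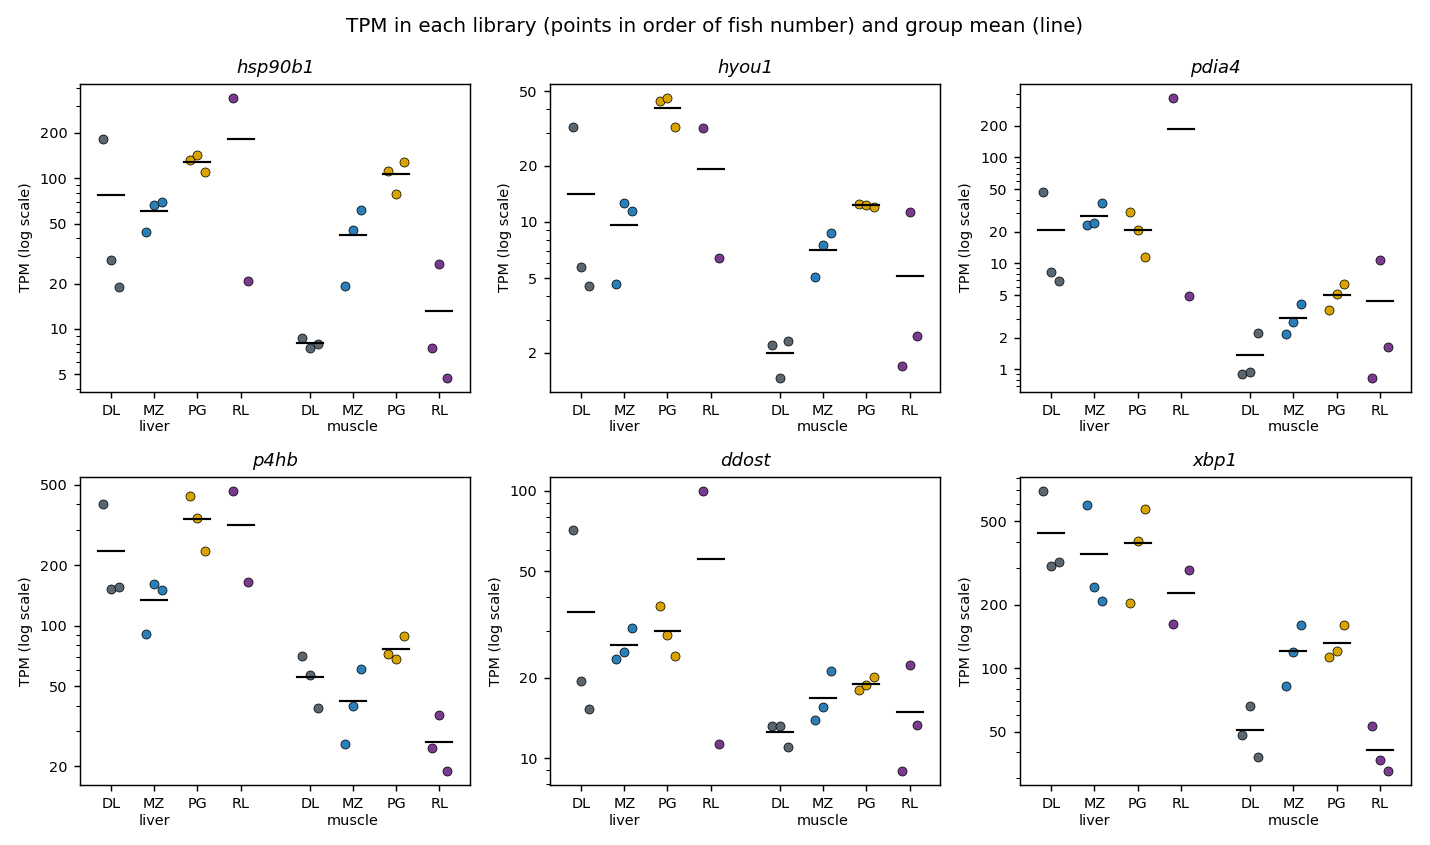
TPM on a log axis of 6 genes of folding, glycosylation and control in each library, with fish in order of their number within a group and the group mean as a line. The DL fish 1 and RL fish 2 livers are far above their groups for hsp90b1, hyou1, pdia4, p4hb and ddost, whereas the RL fish 2 liver is the lower of its pair for xbp1 (161 against 292 TPM).

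The sensors and transcription factors split by gene, with 3 of 9 called higher in liver and 5 higher in muscle. The level of xbp1, the main transcription factor of secretory cells, was 161 to 696 TPM in livers (median 305) and 32.6 to 161 TPM in muscles (median 74.4), without overlap and with a difference of 2.08 (SE 0.23, adjusted p = 1.18e-07). The level of ern1, whose product splices xbp1 mRNA, was 4.51 to 46.3 TPM in livers (median 11.4) and 1.78 to 4.60 TPM in muscles (median 3.15), a difference of 1.78 (SE 0.19, adjusted p = 7.17e-08). The ATF6 relative atf6b was at 1.77 to 8.85 TPM in livers and 1.13 to 2.87 TPM in muscles, a difference of 0.98 (SE 0.17, adjusted p = 4.86e-05). By contrast, atf6 itself was at 1.49 to 23.7 TPM in livers and 1.85 to 22.9 TPM in muscles, with a difference of -0.04 (SE 0.20, adjusted p = 0.885).

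Higher in muscle were atf4 and ddit3, which act in the PERK branch. The level of atf4, which drives amino acid and stress genes, was 9.29 to 47.3 TPM in livers (median 27.6) and 39.7 to 82.0 TPM in muscles (median 62.5), a difference of -1.26 (SE 0.19, adjusted p = 7.48e-06). Its target ddit3 was at 3.05 to 31.8 TPM in livers (median 13.8) and 11.4 to 54.8 TPM in muscles (median 28.8). The difference of -1.03 (SE 0.30, adjusted p = 0.00497) was lost under both scalings (adjusted p = 0.0507 and 0.0192) and without any of 4 libraries, the PG fish 1 and RL fish 2 livers and the MZ fish 2 and RL fish 3 muscles (adjusted p up to 0.0252). The membrane-bound factors creb3l1 and creb3l2, known in mammals for switching on secretion of extracellular matrix, were also higher in muscle. The level of creb3l2 was 0.667 to 16.7 TPM in livers (median 3.17) and 5.65 to 32.1 TPM in muscles (median 13.2), a difference of -1.81 (SE 0.17, adjusted p = 1.69e-08). That of creb3l1 stayed under 1 TPM in every liver (0.0319 to 0.354 TPM) and was 0.486 to 2.95 TPM in muscles, a difference of -1.10 (SE 0.11, adjusted p = 3.23e-08). Listed fibroblast markers (4 of 6), among them collagen genes, summed to 27.1 to 436 TPM in muscles and 0.640 to 10.7 TPM in livers, and their part in these differences was not tested.

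In degradation, 1 of 3 genes tested was called. The level of sel1l, an adaptor of the ubiquitin ligase that removes misfolded proteins, was 3.86 to 25.2 TPM in livers (median 6.999) and 11.1 to 23.7 TPM in muscles (median 14.1). Its difference of -0.89 (SE 0.23, adjusted p = 0.00227) was lost without the RL fish 3 liver (adjusted p = 0.0108) and under both scalings (adjusted p = 0.0744 and 0.0504). The gene of the channel protein derl1 was at 6.38 to 34.0 TPM in livers and 8.11 to 28.2 TPM in muscles, with a difference of -0.35 (SE 0.23, adjusted p = 0.200). Of 9 genes of the COPII coat and vesicle traffic, 1 was called higher in liver and 3 higher in muscle. This balance depended on scaling, as sec13, sec16a and sec24a were also called higher in liver under both scalings (sec24a adjusted p = 1.65e-07 and 2.62e-07). Of the 3 higher in muscle, sec23ip lost its call in 10 of 23 fits that left out 1 library (adjusted p up to 0.0136). The calls of sec22a and sec22c held in all of these fits and under both scalings. The vesicle traffic gene sec22a was at 1.002 to 8.45 TPM in livers and 9.90 to 25.6 TPM in muscles, without overlap and with a difference of -1.79 (SE 0.18, adjusted p = 2.98e-08). Its relative sec22c was low in both tissues, at 0.0581 to 0.622 TPM in livers and 0.765 to 2.33 TPM in muscles, a difference of -0.88 (SE 0.12, adjusted p = 1.50e-06). The cargo adaptor gene sec24d was at 2.40 to 18.8 TPM in livers and 2.12 to 13.3 TPM in muscles, and its difference of 0.48 (SE 0.19, adjusted p = 0.0377) was not called, but was with the tissues of a fish paired (adjusted p = 0.00764) and under both scalings (0.000197 and 0.000343). Of the matches by name alone, the mitochondrial dnajc30 was called higher in muscle (-0.61, SE 0.16, adjusted p = 0.00199) at levels of 0 to 1.17 TPM in livers and 0.336 to 3.65 TPM in muscles, a call lost under both scalings (adjusted p = 0.0258 and 0.0567).

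Within species, 19 of 58 genes were called between the tissues in DL (32.8%; 34.7% of all genes), 13 in MZ (22.4%; 35.9%), 12 in PG (20.7%; 31.6%) and 15 in RL (25.9%; 30.4%). Calls in MZ comprised 6 genes higher in liver and 7 higher in muscle, while those in DL were 15 and 4. The median difference of all genes was also lower in MZ (-0.46) than in DL (-0.23), where that of these genes was -0.16 and 0.76. Genes called in the same direction in each of the 4 species numbered 6 (10.3%), against 16.8% of all genes. They were p4hb, pdia3, sec61b and ssr2, higher in liver, and creb3l1 and sec22a, higher in muscle. Of these, creb3l1 passed the filter through muscles alone. The count was 5 without the 2 livers that stood apart and 3 without the liver of MZ fish 2 or MZ fish 3 or the muscle of MZ fish 1 or PG fish 1. The shares of all genes in these fits are not given here, and the 2 livers were left out for their high levels of these genes.

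The next question was whether livers of different species differ. Over the 6 pairs of species, 3 of 54 genes (5.56%) were called in some pair, against 11.8% of all 16613 genes tested, and each of the 3 was higher in PG. The reads of all species had been assigned to transcripts of MZ, and the part of sequence divergence in any difference between species was not tested. The level of ern1 was 44.4, 46.3 and 22.1 TPM in the PG livers and 8.36, 4.75 and 8.39 TPM in the DL livers, 5.25-fold higher in PG by the means, with 9.02 to 24.2 TPM in MZ and 4.51 and 11.4 TPM in RL between or beside them. The difference between DL and PG was -2.21 (SE 0.47, adjusted p = 0.00809). The oxidase gene ero1a was at 27.2, 23.6 and 11.9 TPM in PG and 3.96, 2.71 and 3.31 TPM in DL, 6.28-fold higher in PG, a difference of -2.27 (SE 0.50, adjusted p = 0.00990). The level of creb3l2 was 13.98, 7.33 and 16.7 TPM in PG and 0.667, 1.42 and 1.57 TPM in MZ, 10.4-fold higher in PG, a difference of -2.58 (SE 0.39, adjusted p = 0.00411). Leukocyte markers (6 of 10 listed) moved with part of these differences, summing to 195 to 276 TPM in PG livers, 168 to 457 TPM in MZ, 39.2 to 120.1 TPM in DL and 46.5 to 52.1 TPM in RL. Among them mpeg1 (-1.73, adjusted p = 0.00980) and spi1 (-1.83, adjusted p = 0.00733) were called higher in PG than in DL livers, and their part in the results was not tested.

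None of the 3 liver calls held in every fit that left out a library, although the groups did not overlap in any of them. The call of ern1 was lost without any DL liver, MZ fish 3, PG fish 1 or PG fish 2 (adjusted p up to 0.0359). That of ero1a was lost without any library other than the MZ fish 1 and MZ fish 2 livers (up to 0.0390), and that of creb3l2 without any MZ liver, PG fish 1 or PG fish 3 (up to 0.0208). Without the DL fish 1 and RL fish 2 livers together, which leaves a lone RL liver assumed to vary like the other groups, 6 of 54 genes were called (11.1%; 7.49% of all genes). Because these livers were left out for their high levels of these genes, lower levels in the remaining DL livers follow from that choice, and the calls are a description only. Among them creb3l2 kept its difference, and atf6 (-2.07, adjusted p = 0.00790), hsp90b1 (-2.41, adjusted p = 0.00389), hyou1 (-2.76, adjusted p = 0.00422), pdia6 (-1.97, adjusted p = 0.00855) and srp9 (-2.14, adjusted p = 0.00733) were higher in PG than in the remaining DL livers. In all livers, hyou1 was at 44.1, 46.2 and 32.2 TPM in PG, 32.0, 5.76 and 4.54 TPM in DL, 4.68 to 12.6 TPM in MZ and 31.7 and 6.40 TPM in RL. The DL fish 1 and RL fish 2 livers thus came just under the lowest PG liver for hyou1.

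**Figure D4:**
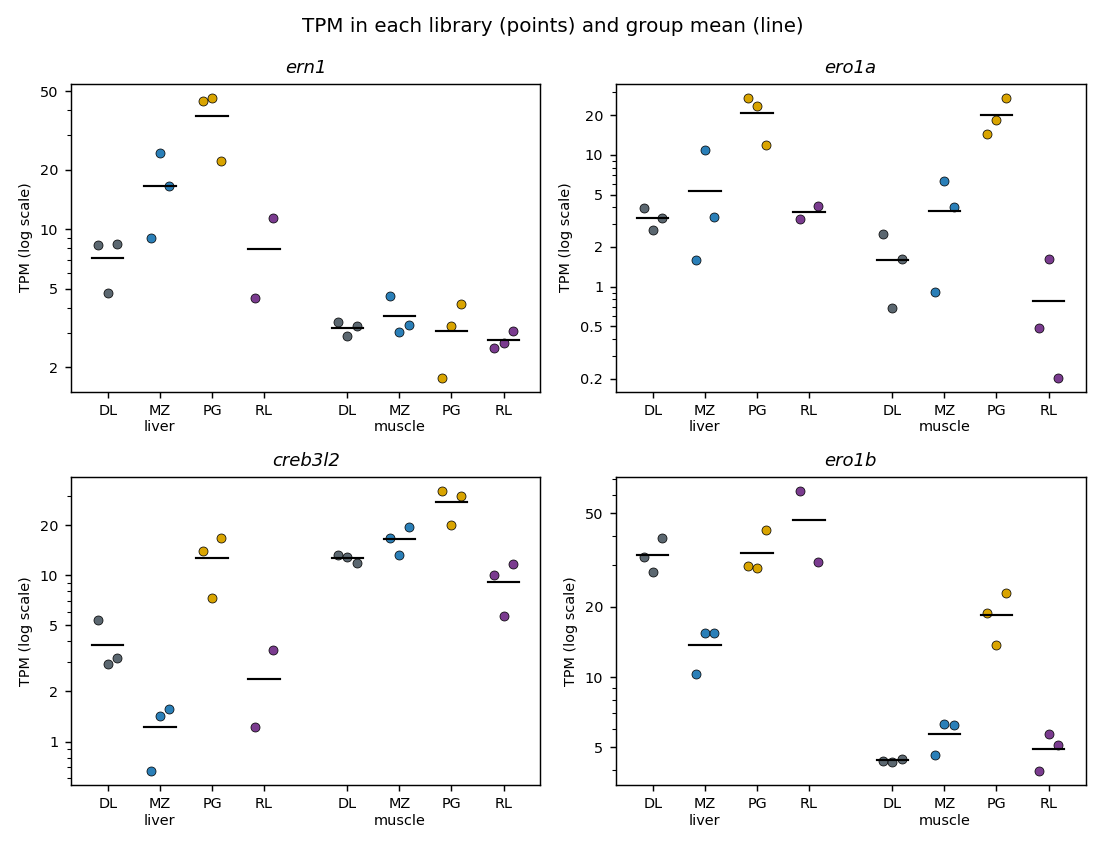
TPM on a log axis of ern1, ero1a, creb3l2 and ero1b in each liver and muscle library of the 4 species, with the group mean as a line. PG has the highest mean in liver for ern1, ero1a and creb3l2 and in muscle for ero1a, creb3l2 and ero1b, whereas muscle ern1 lies between 1.78 and 4.60 TPM in all species.

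The corresponding comparison of muscles gave more calls, again mostly with PG on the higher side. Counting a gene once however many of the 6 pairs called it, 11 of 57 genes (19.3%) were called, against 17.7% of all 18101 genes tested. Against DL, 8 genes (14.04%) were higher in PG and none was lower (4.30% of all genes were higher in PG). Against RL, 8 genes (14.04%) were higher in PG (6.96% of all genes) and 1 was lower. The median difference of the 57 genes was -0.48 for DL minus PG, where that of all genes was 0.21, and 0.42 for PG minus RL, where that of all genes was -0.04. With libraries brought to the same median, the genes higher in PG numbered 19 against DL and 10 against RL, and 14 and 9 with quantile normalisation. The shares of all genes under these scalings are not given here, so whether all genes rose alike cannot be read from these counts. The PG muscles are in the comparison with DL and in that with RL, so the comparisons are not independent. Between DL and RL muscles limma called 0 of 57 genes, with 7 at an unadjusted p under 0.05. The share of all genes called in that pair is not given here, so this count is no trait particular to these genes.

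The level of the chaperone gene hsp90b1 was 112, 78.7 and 128 TPM in PG, 19.4, 45.2 and 61.9 TPM in MZ, 8.73, 7.51 and 7.91 TPM in DL, and 7.50, 27.1 and 4.76 TPM in RL. Every PG muscle was above every other muscle. The PG mean was 13.2-fold that of DL (difference -3.54, adjusted p = 0.00103) and 8.10-fold that of RL (3.24, adjusted p = 0.00139), and both calls held in all 12 fits without a library. The livers of the same PG fish had 133, 144 and 110 TPM of hsp90b1, above the muscle level in PG fish 1 and 2 and below it in PG fish 3.

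The transcription factor gene atf6, whose product switches on hsp90b1 and other chaperones in mammals, had a similar order. It was at 18.1, 16.5 and 22.9 TPM in PG, 8.86, 8.23 and 12.6 TPM in MZ, 3.76, 2.19 and 2.198 TPM in DL, and 1.85, 3.36 and 1.96 TPM in RL. Every muscle of the rock-dwelling species lay above every muscle of the pelagic ones. The difference was -2.45 for DL minus PG (7.05-fold higher in PG, adjusted p = 0.000137), 2.59 for PG minus RL (8.02-fold, adjusted p = 7.09e-05), 1.69 for MZ minus RL (4.14-fold, adjusted p = 0.00168) and -1.56 for DL minus MZ (3.64-fold higher in MZ, adjusted p = 0.00415). The first 3 held in all 12 fits without a library, and the last was lost without DL fish 2 or 3 or MZ fish 2 or 3 (adjusted p up to 0.0231).

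Both oxidases were highest in PG. The level of ero1a was 14.5, 18.5 and 27.1 TPM in PG, 0.918, 6.38 and 4.02 TPM in MZ, 2.50, 0.686 and 1.61 TPM in DL, and 0.486, 1.63 and 0.204 TPM in RL. PG was 12.5-fold above DL (difference -3.04, adjusted p = 0.00139) and 25.9-fold above RL (3.61, adjusted p = 0.000384). The level of ero1b was 18.8, 13.7 and 22.9 TPM in PG, 4.66, 6.27 and 6.26 TPM in MZ, 4.39, 4.35 and 4.47 TPM in DL, and 3.98, 5.69 and 5.13 TPM in RL, so the other 3 species were close to each other. PG was 4.19-fold above DL (-1.82, adjusted p = 0.000336), 3.74-fold above RL (1.69, adjusted p = 0.000371) and 3.22-fold above MZ (-1.51, adjusted p = 0.00391). Only the difference of ero1b from MZ was lost when a library was left out, for any MZ muscle, PG fish 1 or PG fish 3 (adjusted p up to 0.0207).

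**Figure D5:**
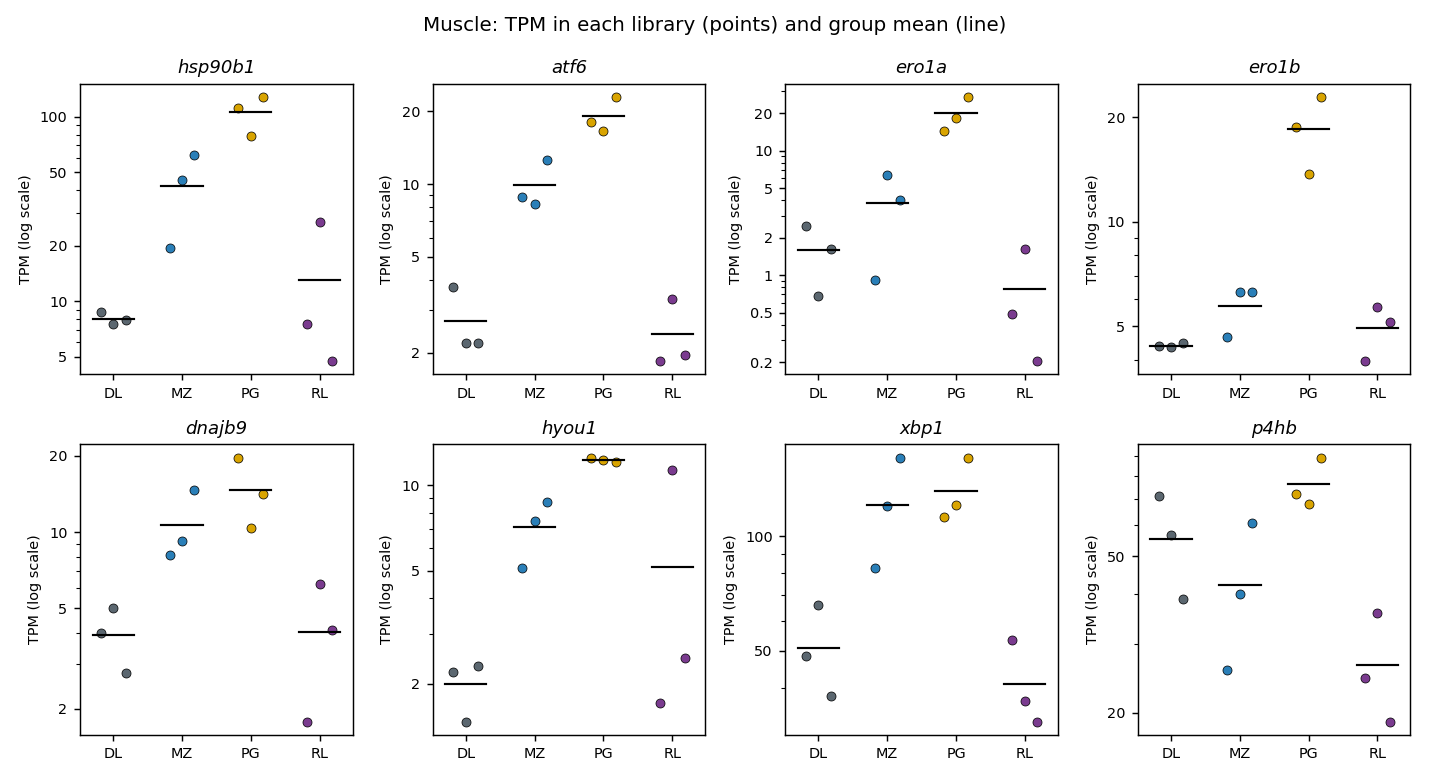
TPM on a log axis of 8 genes in the 12 muscle libraries, 3 per species, with the group mean as a line. The 3 PG muscles are above all others for hsp90b1, atf6, ero1a and ero1b, and the RL fish 2 muscle (11.3 TPM) lies near PG (12.1 to 12.5 TPM) for hyou1.

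The other calls between muscles were less steady. The level of hyou1 was 12.5, 12.3 and 12.1 TPM in PG and 2.196, 1.47 and 2.31 TPM in DL (6.16-fold, difference -2.16, adjusted p = 0.00572), and the call was lost without any of these 6 muscles (up to 0.0219). The level of dnajb9 was 19.7, 10.4 and 14.2 TPM in PG, 3.99, 5.004 and 2.78 TPM in DL, and 1.78, 6.22 and 4.10 TPM in RL. The MZ muscles, at 8.15, 9.21 and 14.7 TPM, overlapped those of PG. PG was higher than DL (-1.66, adjusted p = 0.00790) and RL (1.71, adjusted p = 0.00642). The first call was lost without any DL muscle, MZ fish 1 or 2, PG fish 1 or 3, or RL fish 3 (up to 0.0365), and the other without PG fish 1 or 3 or RL fish 1 or 3 (up to 0.0222). For sec61b the PG muscles had 37.4, 27.3 and 40.7 TPM and the DL muscles 17.7, 12.5 and 8.33 TPM (-1.42, adjusted p = 0.00507), a call lost without DL fish 2 or 3 or PG fish 1 or 3 (up to 0.0247). The level of p4hb was 72.02, 68.0 and 89.0 TPM in PG and 24.6, 35.9 and 19.0 TPM in RL (1.53, adjusted p = 0.00787), a call lost without DL fish 2, MZ fish 2, any PG muscle, or RL fish 1 or 3 (up to 0.0347). The DL muscles, at 70.9, 56.6 and 38.8 TPM of p4hb, overlapped those of PG.

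The levels of xbp1 also separated the rock-dwelling from the pelagic species. It was at 113, 121 and 161 TPM in PG, 82.6, 119.9 and 161 TPM in MZ, 48.4, 66.2 and 37.9 TPM in DL, and 53.4, 36.8 and 32.6 TPM in RL. The difference was 1.67 for PG minus RL (adjusted p = 0.00263), 1.52 for MZ minus RL (adjusted p = 0.00732) and -1.37 for DL minus PG (adjusted p = 0.00836), while DL minus MZ was not called (-1.22, adjusted p = 0.0271). All 3 calls were lost without the RL fish 2 or RL fish 3 muscle. That of PG minus RL was also lost without PG fish 3 (adjusted p up to 0.0141), that of MZ minus RL without DL fish 1, MZ fish 2 or 3 or PG fish 2 (up to 0.0347) and under both scalings (0.0165 and 0.0143), and that of DL minus PG without DL fish 1 or 3, MZ fish 2 or any PG muscle (up to 0.0395). The level of creb3l2 was 32.1, 20.2 and 29.9 TPM in PG and 9.99, 5.65 and 11.6 TPM in RL (1.52, adjusted p = 0.00249), a call lost without PG fish 3 (adjusted p = 0.0127). The only gene higher in RL than in PG was srp19, of the signal recognition particle, named after its values were seen. It had 53.1, 38.7 and 35.5 TPM in RL and 24.7, 16.8 and 17.5 TPM in PG (-1.07, adjusted p = 0.00704), and the call was lost in 10 of 12 fits without a library (up to 0.0303), the exceptions being those without DL fish 2 or PG fish 1, and with libraries at the same median (adjusted p = 0.0193). Between muscles, 5 genes were called without PG fish 3 and 7 without RL fish 3. The shares of all genes called in these fits are not given here, so these counts are no trait particular to these genes.

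Genes of the same pathway that the symbol pattern does not cover were also compared. Between the tissues, averaged over species, 26 of 89 such genes were called higher in liver and 23 higher in muscle. Their median difference, liver minus muscle, was 0.02. The 58 genes had 22 and 11 such calls and a median of 0.42. Of all genes tested, 17% were called higher in liver and 38.4% higher in muscle, with a median of -0.27. In the wider list, more genes were thus called higher in liver than in muscle, while among all genes fewer were. The calls of the wider list were more even in number than those of the 58 genes. Between livers of any pair of species 4 of the 89 were called, where 11.8% of all genes were. By interaction 3 of the 89 were called, where 9.49% of all genes were. Of 88 such genes tested, 10 (11.4%) were called between the muscles of any pair of species, where 17.7% of all genes were. Higher in PG than in DL were 8 (9.09%; 4.30% of all genes), and higher in PG than in RL were 7 (7.95%; 6.96% of all genes). The largest of these differences was that of herpud1, an unfolded-protein-response gene of ER-associated degradation, with 55.8, 17.5 and 52.8 TPM in PG, 6.30, 10.7 and 13.6 TPM in MZ, 3.11, 2.08 and 2.49 TPM in DL, and 0.986, 1.85 and 0.882 TPM in RL. Its difference was -3.44 for DL minus PG (SE 0.41, adjusted p = 0.000272) and 4.12 for PG minus RL (SE 0.41, adjusted p = 6.54e-05). The PERK gene eif2ak3 was at 4.26 to 8.31 TPM in PG, 0.764 to 2.21 TPM in DL and 1.23 to 2.11 TPM in RL, and was called higher in PG than in either (-1.63, adjusted p = 0.00435, and 1.40, adjusted p = 0.00872). The others higher in PG than in both were hspa13, sar1a, stx5 and tram2, while manf and tram1 were higher than in DL and copa than in RL. The last of the 10, man1b1, was called between DL and MZ (1.56, adjusted p = 0.00889). MZ muscles were also called higher for hspa13, against DL (DL minus MZ -1.67, adjusted p = 0.00725) and RL (MZ minus RL 2.05, adjusted p = 0.00160). For herpud1 they were called higher than RL (MZ minus RL 2.29, adjusted p = 0.00392).

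Markers of other cell types moved with part of this pattern. Listed leukocyte markers (6 of 10) summed to 137 to 386 TPM in PG muscles, 209 to 258 TPM in MZ, 86.8 to 213 TPM in DL and 48.5 to 59.4 TPM in RL, and the macrophage gene mpeg1 was called higher in PG than in DL and RL, at 3.90 to 12.9 TPM against 0.523 to 1.37 TPM and 0.393 to 0.558 TPM. Markers of B and plasma cells (4 of 8), which are rich in ER, summed to 3.73 to 16.6 TPM in PG, 4.38 to 12.02 TPM in MZ, 2.06 to 8.86 TPM in DL and 1.88 to 3.43 TPM in RL muscles. Fibroblast markers summed to 42.8 to 180 TPM in PG, overlapping DL (78.2 to 335 TPM) and below RL (316 to 436 TPM). Exocrine pancreas markers stayed at or below 1.54 TPM in every muscle. The part of leukocytes in the differences between muscles was not tested.

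Whether the tissue difference itself changes between species was tested as the interaction of species and tissue. Over the 6 pairs of species, 2 of 58 genes (3.45%) were called, against 9.49% of all genes tested. The first was ern1, whose liver level differed between species while its muscle level did not leave 1.78 to 4.60 TPM. Its tissue difference was 0.93 in DL (SE 0.37), 1.84 in MZ (SE 0.37), 3.22 in PG (SE 0.37) and 1.15 in RL (SE 0.41), and DL and PG differed by -2.29 (adjusted p = 0.00720). The other was ero1b, whose muscle level was called higher in PG than in each other species (given above). Its livers had 32.4, 28.2 and 39.4 TPM in DL, 10.3, 15.5 and 15.5 TPM in MZ, 29.8, 29.2 and 42.4 TPM in PG, and 62.4 and 31.0 TPM in RL. The tissue difference was 2.66 in DL (SE 0.27), 1.12 in MZ (SE 0.27), 0.85 in PG (SE 0.27) and 2.94 in RL (SE 0.30). It was 1.81 larger in DL than in PG (adjusted p = 0.00435), while that of PG minus RL was -2.09 (adjusted p = 0.00258) and that of MZ minus RL -1.81 (adjusted p = 0.00923).

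None of the 4 interaction calls held in every fit without a library. That of ern1 was lost in 9 of 23 fits without a library, those of the DL fish 2 and 3 and PG fish 1 and 2 livers, any DL muscle, and the PG fish 1 and 2 muscles (adjusted p up to 0.0227), and with a block that pairs the tissues of a fish (adjusted p = 0.0300). For ero1b, DL against PG was lost in 8 fits, the DL fish 3 and PG fish 1 and 2 livers, any DL muscle, and the PG fish 1 and 3 muscles (up to 0.0160). MZ against RL was lost in 18 of 23 (up to 0.0737), all but those without the DL fish 3, PG fish 3 and RL fish 3 livers and the PG fish 2 and 3 muscles, under both scalings (adjusted p = 0.0163 and 0.0168) and with the block (0.0233), while PG against RL was lost without the RL fish 2 liver (adjusted p = 0.0283), which had the highest ero1b level of all livers, and in a fit of those groups alone (0.0208). With the block, sec24d was called as well, for DL minus MZ (adjusted p = 0.00252) and MZ minus RL (0.00760).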

How the data were processed

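RNA-seq (rRNA-depleted, stranded libraries) was available as gene-level tables, 1 for liver and 1 for muscle. Per the labels and methods, the authors trimmed reads with Trim Galore, quantified them with kallisto against M. zebra transcripts (UMD2a) for all species, and deposited TPM values per library. TPM keeps no read number, so the depth behind a value is unknown here and no counting interval is given. Columns of species means, the authors' lists of differentially methylated regions and the bisulfite data were not used. Columns with no sample numbered 0.

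Values were transformed to log2(TPM + 1), and a gene entered a fit when 2 or more of its libraries reached 1 TPM (20549 genes in the fit of 23 libraries, 16613 in that of 11 livers, 18101 in that of 12 muscles). Linear models with 1 coefficient per group were fitted with limma 3.58.1 (R 4.3.3, moderated by a trend on mean expression). P-values are two-sided and Benjamini-Hochberg adjusted within each contrast over all genes tested, with a threshold of 0.01 as in the study's methods. The scripts were tested on simulated data. Scalings, pseudocounts, filters, left-out libraries and a replicate block were tried as alternatives.

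The numbers pair liver and muscle of the same fish, as the study's sample sheet gives them. Deviations from group means correlated at 0.0920 to 0.160 across genes for the 11 same-fish pairs and at -0.131 to 0.0331 for 22 pairs of different fish. Deviations cancel within a group, so higher values for same-fish pairs make those for different fish lower, and the ranges are not independent.

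Genes were named by role, as the 8 largest called tissue differences in each direction, the 8 largest non-overlapping called differences (at least 5 TPM) between livers and between muscles, and called interactions. The genes, lists and this rule were chosen with earlier results of these data known. Of the 59 symbols, 53 were found in a RefSeq gene table of another build, used for names alone.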

Additional observations from a re-analysis of the deposited data

Results flagged for a closer look

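The difference between liver and muscle itself was called different between species for ern1 and ero1b, by the interaction test of limma over all 23 libraries. These 2 of 58 genes (3.45%) stand beside 9.49% of all genes tested. None of the 4 interaction calls held in every fit without a library. For ern1 the tissue difference of DL minus that of PG was -2.29 on the log2 scale (adjusted p = 0.00720). For ero1b the tissue difference was 1.81 larger in DL than in PG (adjusted p = 0.00435). It differed by -1.81 for MZ minus RL (adjusted p = 0.00923) and by -2.09 for PG minus RL (adjusted p = 0.00258). The IRE1 gene ern1 differed in liver, at 22.1 to 46.3 TPM in PG and 4.75 to 8.39 TPM in DL, while ero1b was at 13.7 to 22.9 TPM in PG muscles, 4.35 to 4.47 TPM in DL and 3.98 to 5.69 TPM in RL, and between MZ and RL it was the livers that lay apart, at 10.3 to 15.5 TPM against 31.0 and 62.4 TPM.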

How the results depend on the processing

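No called difference changed direction under any alternative, in 1625 comparisons of which 250 lost their call. These refit the same data, and leaving out a library from outside a contrast does not move its estimate, so they are no independent test of direction. Named differences that were not called in the main fit were left out of these comparisons. For the counts that follow, the shares of all genes called under each alternative are not given here. Whether all genes moved alike cannot be read from them. The number of genes called between tissues stayed at 28 to 40 throughout and at 29 to 34 when a library was left out. Genes called in each of 4 species numbered 2 with only the groups of a contrast in the fit, 10 at an adjusted p under 0.05, and 3 to 7 without a library. Genes called between livers numbered 0 without the filter (limma, 32 at an unadjusted p under 0.05), 11 at 0.05 and 0 to 3 without a library. They were 0 without MZ fish 3 or PG fish 1 (31 and 23 at an unadjusted p under 0.05), 1 without DL fish 2, DL fish 3 or PG fish 3, and 6 without the DL fish 1 and RL fish 2 livers, an alternative chosen after seeing the data. Genes called between muscles numbered 7 without the filter, 18 with quantile normalisation, 21 with libraries at the same median, 6 with only the groups of a contrast, 25 at 0.05, and 5 to 15 without a library. Interactions numbered 1 with a pseudocount of 0.1, without the filter or with only the groups of a contrast, 4 with libraries at the same median, 12 at 0.05, and 1 to 4 without a library (4 without the DL fish 1 liver, 1 without each of 8 others that end the call of ern1).

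In fits of only the groups of a contrast, calls were lost between muscles for atf6 (DL and MZ), dnajb9, sec61b, xbp1 (DL and PG, MZ and RL), ero1b (MZ and PG), creb3l2, p4hb and srp19, and for 3 of the 4 interactions (all but ero1b in DL and PG).

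With the fish as a replicate block, 36 genes were called between the tissues, 7 in each of 4 species (canx and creb3l2 joined, creb3l1 left) and 2 by interaction, and ddost (adjusted p = 0.00965) and derl2 (0.00413) joined the tissue calls. Beside the changes given above, the block changed no other call of the tissue difference averaged over species or of an interaction. Within a tissue, fish numbers do not pair species. With that number as a block, 1 gene was called between livers and 7 between muscles, and same-numbered libraries correlated at -0.0680 to 0.158 in liver (8 of 11 best with their own number) and -0.0923 to 0.0838 in muscle (2 of 12). The cause of these changes was not tested. With 2 or 3 fish per group and no read numbers, genes near 1 TPM are the least certain.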
